A study of Mus musculus with 18 samples.

Results

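The genes described here are 10 genes whose proteins coat the lipid droplet or break down the triglyceride inside it: the perilipin genes *Plin1* to *Plin5*, *Cidec*, the lipase genes *Pnpla2*, *Lipe* and *Mgll*, and *Abhd5*. They were chosen by gene symbol from a table of 54532 genes, all 10 were found there, and 9 passed the filter on low counts that left 14317 genes for testing. *Plin5* did not pass. The table came from bulk RNA sequencing of 18 libraries of 10T1/2 cells (also written C3H10T1/2), a multipotent mouse fibroblast line that can be driven toward the adipocyte fate.

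The 6 groups of 3 libraries were WT cells and FOXS1 KO clones 1 and 2, each uninduced or TGF-β1 + DMII stimulated. Each FOXS1 KO clone was edited with CRISPR-Cas9 and grown from a single cell, so each stands for 1 clonal line. FOXS1 is a forkhead transcription factor, and the study asked how its loss changes the response of fibroblasts that receive fibrotic and adipogenic stimuli together. Stimulated cells spent 12 h in TGF-β1 at 1 nM and the next 48 h in DMII. DMII is an adipogenic mix of insulin, dexamethasone, indomethacin and the phosphodiesterase inhibitor IBMX. The effect of TGF-β1 therefore cannot be told apart from that of DMII. The study's methods also describe serum starvation before TGF-β1 and another medium for DMII. The labels do not say whether uninduced cells were starved, moved to that medium or matched in time. Effects of starvation, medium and time in culture therefore cannot be told apart from stimulation either. Library totals ranged from 15576685 to 29383944 counts, apart from 1 uninduced clone 2 library with 42005596.

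A lipid droplet is a core of triglyceride and sterol esters within a single layer of phospholipid, and perilipins sit on that layer. PLIN2 and PLIN3 are made in most cell types, whereas PLIN1 and PLIN4 are known mainly from adipocytes and PLIN5 from oxidative tissues. CIDEC (also called FSP27) promotes the fusion and growth of droplets in white adipocytes. Lipolysis proceeds in steps: ATGL, the product of *Pnpla2*, cuts triglyceride to diglyceride with the help of its coactivator CGI-58 (*Abhd5*), hormone-sensitive lipase (*Lipe*) cuts diglyceride, and monoglyceride lipase (*Mgll*) releases the last fatty acid. In resting adipocytes PLIN1 holds CGI-58 away from ATGL.

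Levels are given as CPM, the count of a gene relative to the TMM-scaled total of its library, and as CPM per kb of gene model where genes are compared with each other. Differences are log2 fold changes from edgeR's quasi-likelihood test, fitted across all tested genes with Benjamini-Hochberg adjusted p, and a gene was called when its adjusted p was below 0.05 and its fold change above 2. The labels do not say that the 3 libraries of a group came from separate cultures, so p-values measure only the spread between these samples. The 3 WT libraries of a treatment served as the reference for both clones. In bulk RNA, fewer cells making a transcript and less transcript per cell cannot be told apart.

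The RNA total of the targeted gene did not mark the edit. *Foxs1* stood at 1.64 to 3.25 CPM in uninduced and 1.85 to 3.13 CPM in stimulated WT libraries. It reached 23.4 to 27.1 and 52.9 to 56.8 CPM in the uninduced and stimulated libraries labelled clone 1, and 21.1 to 23.9 and 38.0 to 42.8 CPM in those labelled clone 2. The total for a gene does not show which part of it was edited. In the study, the edited locus was sequenced, and western blots of both clones showed loss of the FOXS1 protein. Which library belongs to WT or to a clone still rests on the labels, and so does every direction below. Among markers of other cell types, the summed level of 7 fibroblast genes was at least 33898 CPM in every library. Most of it was collagen genes and *Vim*, and single markers differed between genotypes. *Thy1* averaged 49.0, 161 and 0.342 CPM in stimulated WT, clone 1 and clone 2 cells, and *Pdgfra* 731, 310 and 301 CPM. Skeletal muscle markers summed to at most 0.602 CPM in any library. Endothelial markers summed to at most 0.828 CPM outside the uninduced WT cells. In uninduced WT cells they reached 5.03 to 7.92 CPM, most of it *Tek* (5.91 ± 0.860 CPM, SD, n = 3), while *Kdr* had no count.

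Of 8 mature adipocyte markers, only *Cebpa*, *Fabp4* and *Adipoq* passed the filter, and *Retn* and *Lep* had no count in any library. The summed level of the 8 was 87.1 to 92.5 CPM in uninduced and 47.0 to 49.2 CPM in stimulated WT cells. It was 55.9 to 62.8 and 129 to 146 CPM in clone 1, and 28.5 to 31.0 and 26.7 to 27.9 CPM in clone 2. Most of it was *Cebpa* in every group. *Fabp4*, a fatty acid carrier of adipocytes, reached 20.4 ± 4.37 CPM (SD, n = 3) in stimulated clone 1, while stimulated WT cells held 0.631 ± 0.377 CPM and stimulated clone 2 held 3.16 ± 0.945 CPM. *Cfd* had no count in any stimulated library. Macrophages also coat droplets with PLIN2. The summed level of 7 macrophage markers was 4.33 to 9.87 CPM in WT libraries and 14.5 to 54.0 CPM in clone libraries, most of it *Cd14*. *Ptprc*, which marks all leukocytes, had no count in any library, and *Adgre1* and *Itgam* were at or near 0. The part of these markers in the results below was not tested.

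The starts of 5 of these genes are shown, because the results turn on the expression of *Plin4*, *Plin1*, *Cidec*, *Plin2* and *Abhd5*. The sequences come from RefSeq on GRCm38.p6, whose table held 14 promoters for the 10 genes, and begin 250 bases before the annotated start of transcription. Each is written 5′ to 3′ on the strand of the gene and stops where an exon annotated in GENCODE M21 begins, and where a gene has several promoters the first one is given. The windows are chr17:56109804-56110032 for *Plin4*, chr7:79732904-79733026 for *Plin1*, chr6:113435761-113436010 for *Cidec* and chr4:86670061-86670309 for *Plin2*, all on the minus strand, and chr9:122351366-122351607 for *Abhd5* on the plus strand. Capitals mark a match, on either strand, to any of the motifs listed after the sequences.
Plin4: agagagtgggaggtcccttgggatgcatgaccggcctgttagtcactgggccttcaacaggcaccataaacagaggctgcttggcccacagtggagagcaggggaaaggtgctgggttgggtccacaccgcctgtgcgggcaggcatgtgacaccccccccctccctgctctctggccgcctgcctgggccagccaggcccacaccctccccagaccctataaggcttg
Plin1: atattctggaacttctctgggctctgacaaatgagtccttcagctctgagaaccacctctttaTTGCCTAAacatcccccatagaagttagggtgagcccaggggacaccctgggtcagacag
Cidec: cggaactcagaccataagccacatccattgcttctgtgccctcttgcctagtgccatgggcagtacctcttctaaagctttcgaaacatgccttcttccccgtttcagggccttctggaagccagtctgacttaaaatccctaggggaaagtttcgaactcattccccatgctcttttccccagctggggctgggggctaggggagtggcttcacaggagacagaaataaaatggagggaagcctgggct
Plin2: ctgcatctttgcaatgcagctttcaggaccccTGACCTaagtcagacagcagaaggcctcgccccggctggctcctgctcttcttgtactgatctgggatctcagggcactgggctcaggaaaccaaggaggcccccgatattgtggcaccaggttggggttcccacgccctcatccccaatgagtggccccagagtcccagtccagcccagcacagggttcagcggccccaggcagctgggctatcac
Abhd5: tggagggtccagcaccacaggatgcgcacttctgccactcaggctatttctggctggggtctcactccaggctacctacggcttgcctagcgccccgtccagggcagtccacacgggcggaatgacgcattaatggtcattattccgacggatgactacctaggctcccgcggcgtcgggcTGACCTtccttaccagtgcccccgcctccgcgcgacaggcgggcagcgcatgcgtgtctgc

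Both strands of all 250-base windows were searched for AGGTCA (a nuclear receptor core site), TGTTTAC (forkhead), AGAACA (a glucocorticoid receptor core site), TGACGTCA (cAMP response element), TTGCNNAA (C/EBP) and GTCTAGAC (SMAD). None of these motifs overlapped another in the member windows. AGGTCA was found in the windows of *Plin2*, *Abhd5* and *Plin5*, and in 14.0% of all 32851 promoters of the table. TTGCNNAA was found in *Plin1*, which held 2 matches (1 of them in the part not printed), and in the second promoter of *Cidec*, against 9.56% of all promoters. TGTTTAC was found in the first promoter of *Mgll* and the second of *Lipe*, against 3.17% of all promoters, and AGAACA in the first promoter of *Mgll*, against 16.1%. TGACGTCA, held by 1.55% of all promoters, and GTCTAGAC, held by 0.167%, were found in no member window. The *Plin4* window held none of the 6 motifs. These matches describe letters in a window and do not show a bound site.

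In stimulated cells, 8 of the 9 tested genes were higher in clone 1 than in WT and none was lower, where 9.42% of all tested genes were called higher and 9.6% lower. In clone 2, 5 were higher and none lower, against 7.95% and 8.94% of all tested genes. Those 5 (*Plin1*, *Plin2*, *Plin4*, *Lipe* and *Abhd5*) were higher in both clones, a call made for 5.26% of tested genes, and 5.77% were lower in both. *Cidec*, *Pnpla2* and *Mgll* were called higher in clone 1 only. *Plin1* and *Cidec* passed the filter only through their counts in stimulated clone 1. For both, calls here and below that set stimulated clone 1 against another group are therefore not independent of the filter. The clones themselves differed in stimulated cells for 5 genes (*Plin1*, *Plin4*, *Cidec*, *Pnpla2* and *Mgll*), all higher in clone 1, where 5.5% of tested genes were called higher and 4.48% lower. The median log2 fold change of the 9 genes was 2.44 in clone 1 and 1.25 in clone 2, beside -0.02 and -0.01 over all tested genes.

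**Figure D1:**
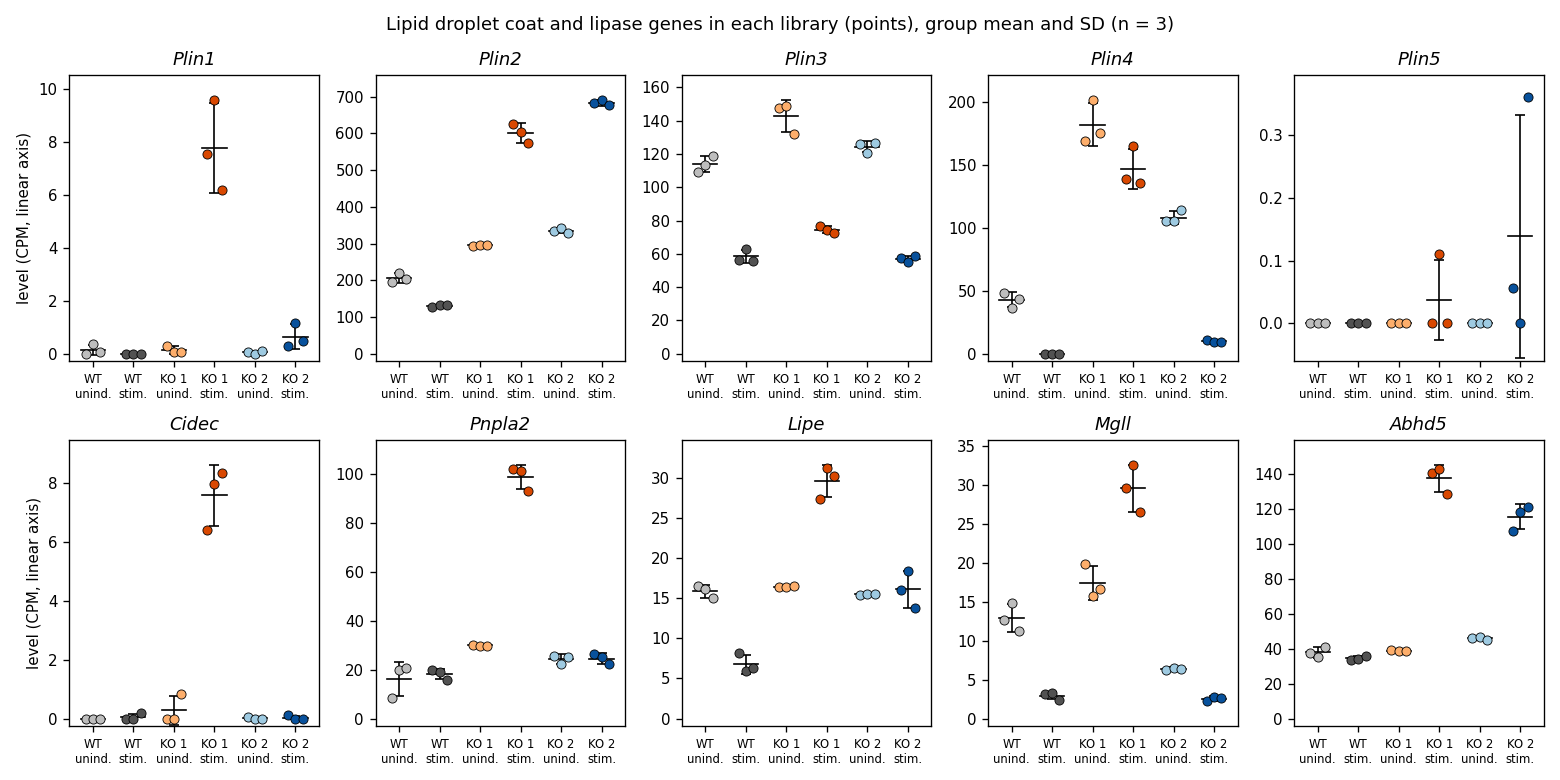
Level of each of the 10 genes in every library, in CPM on a linear axis that differs between panels, for WT and FOXS1 KO clones 1 and 2 (KO 1, KO 2), uninduced (unind.) or stimulated (stim.). Points are libraries, and lines and bars are the mean and SD of 3 libraries. The 3 stimulated clone 1 libraries lie above every stimulated WT library for *Plin1*, *Plin2*, *Plin4*, *Cidec*, *Pnpla2*, *Lipe*, *Mgll* and *Abhd5*. They also do so for *Plin3*, whose change was under the fold threshold. *Plin5* had a count in 3 libraries only.

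*Plin2*, the perilipin of most cell types, was the most abundant of the 10 genes per kb in every group. It stood at 195, 221 and 204 CPM in uninduced WT libraries and at 129, 132 and 132 CPM after stimulation. In clone 1 it stood at 294, 296 and 296 CPM uninduced and 626, 604 and 573 CPM stimulated, and in clone 2 at 334, 342 and 328 CPM uninduced and 682, 690.5 and 676 CPM stimulated. No group overlapped another, and stimulated libraries lay below uninduced ones in WT cells and above them in both clones. Compared to WT, stimulated cells of clone 1 held 4.60-fold more (log2 fold change 2.20, SE 0.05, adjusted p 7.34e-26) and those of clone 2 held 5.23-fold more (2.39, SE 0.05, adjusted p 1.35e-26). In uninduced cells the log2 differences of 0.52 and 0.70 lay beyond the spread of the libraries but under the fold threshold.

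*Plin4*, which encodes an adipocyte perilipin that coats small nascent droplets, changed most. Uninduced WT libraries held 48.2, 36.4 and 43.6 CPM, and stimulated ones 0.0978, 0.0864 and 0.180 CPM, which are 2, 2 and 4 counts. Clone 1 held 169, 201 and 176 CPM uninduced and 139, 165 and 136 CPM stimulated. Clone 2 held 105, 105 and 114 CPM uninduced and 11.3, 9.48 and 9.32 CPM stimulated. All stimulated WT libraries were thus near 0, stimulated clone 2 was intermediate, and stimulated clone 1 was above every WT library of either treatment. The fitted difference from WT in stimulated cells was 10.17 (SE 0.20, adjusted p 1.32e-22) in clone 1 and 6.30 (SE 0.30, adjusted p 8.66e-15) in clone 2 on the log2 scale.

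Because only 8 counts over the group stood in the denominator, the *Plin4* ratios carry wide counting intervals. From the counts alone the clone 1 level was 1219-fold that of WT (95% interval 618 to 2823) and the clone 2 level 82.8-fold (41.7 to 193), and these intervals cover counting error only. *Plin4* was also the gene called higher in both clones in uninduced cells, by 2.09 (SE 0.09, adjusted p 1.67e-15) and 1.34 (SE 0.09, adjusted p 7.11e-12). The clones differed by 3.87 (SE 0.11, adjusted p 1.00e-18) after stimulation and by 0.75, under the fold threshold, before it.

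*Plin1*, which encodes the major coat protein of the adipocyte droplet, had few counts outside stimulated clone 1. It had 0, 7 and 2 counts in uninduced and none in stimulated WT libraries, and 6, 1 and 1 and then 3, 0 and 2 counts in the uninduced clone 1 and clone 2 libraries. After stimulation it had 142, 260 and 136 counts in clone 1 (7.56, 9.59 and 6.19 CPM) and 5, 18 and 8 counts in clone 2 (0.280, 1.18 and 0.481 CPM). Every stimulated clone library therefore had counts and no stimulated WT library did. Against a floor of 3 counts over the WT group, *Plin1* was at least 174-fold higher in stimulated clone 1 (adjusted p 6.04e-10) and at least 13.7-fold higher in stimulated clone 2 (adjusted p 0.000121). Clone 1 exceeded clone 2 by 3.61 (SE 0.52, adjusted p 1.91e-06) on the log2 scale. When clone 2 and WT were fitted without the other groups, *Plin1* did not pass the filter on low counts.

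*Cidec*, the droplet fusion gene, set the clones apart. Stimulated clone 1 libraries held 120, 216 and 183 counts (6.39, 7.96 and 8.34 CPM), whereas stimulated WT libraries held 0, 0 and 4 counts and stimulated clone 2 libraries 2, 0 and 0. It was higher in clone 1 than in WT by 6.83 (SE 0.93, adjusted p 4.81e-06), a ratio of 126 from the counts (95% interval 48.8 to 463). Against clone 2 the ratio was 190 (52.4 to 1576, adjusted p 1.14e-05). Clone 2 and WT did not differ beyond counting error (2 against 4 counts, adjusted p 0.844).

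*Plin5*, the perilipin of oxidative tissues, had 10 counts in all and was not tested. They fell in stimulated clone libraries: 3 counts in 1 library of clone 1, and 1 and 6 counts in 2 libraries of clone 2. In the fit without a filter the difference of stimulated clone 2 from WT had an adjusted p of 0.0981. *Plin5* lies 1797 bases from *Plin4* on chromosome 17, where both are read from the minus strand (GRCm38, *Plin4* at 56100591 to 56109803 and *Plin5* at 56111601 to 56117596). *Plin3* lies a further 159879 bases along.

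*Plin3*, the other broadly made perilipin, followed neither gene. It stood at 109, 114 and 119 CPM in uninduced WT libraries and 56.5, 63.1 and 55.9 CPM in stimulated ones. Its response was -0.96 in WT cells and -0.94 in clone 1, both under the fold threshold, and -1.13 in clone 2. In stimulated cells it was higher in clone 1 by 0.35 (SE 0.06, adjusted p 9.13e-06), under the fold threshold, and in clone 2 the difference was -0.04 (SE 0.06, adjusted p 0.627) with overlapping libraries.

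Of the lipase genes, *Pnpla2* and *Mgll* were called different between the stimulated clones and *Lipe* was not (0.88, SE 0.11, under the fold threshold). *Pnpla2*, which encodes the first lipase of the pathway, stood at 19.7, 19.0 and 15.9 CPM in stimulated WT libraries, 102, 101 and 93.1 CPM in clone 1 and 26.6, 25.0 and 22.2 CPM in clone 2. Clone 1 was higher than WT by 2.44 (SE 0.21, adjusted p 1.28e-07), while the clone 2 difference of 0.43 (SE 0.22) had an adjusted p of 0.111. Clone 1 exceeded clone 2 by 2.01 (SE 0.21, adjusted p 1.76e-06). Among uninduced WT libraries 1 stood low, at 8.33 CPM beside 19.7 and 20.6 CPM. The uninduced difference of clone 1 from WT was 0.86 (adjusted p 0.00405), and it ranged from 0.57 without the first uninduced WT library, the low one, to 1.08, past the fold threshold, without the third.

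*Abhd5*, whose product activates ATGL, was higher in both clones. Stimulated libraries held 33.6, 33.9 and 35.8 CPM in WT, 141, 143 and 129 CPM in clone 1 and 107, 118 and 121 CPM in clone 2. The clones lay above WT by 2.00 (SE 0.06, adjusted p 2.14e-21) and 1.74 (SE 0.07, adjusted p 8.17e-20), and their difference from each other, 0.25, was under the fold threshold. Uninduced libraries lay between 35.2 and 46.9 CPM in every genotype.

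*Lipe*, the hormone-sensitive lipase gene, was 8.12, 5.87 and 6.36 CPM in stimulated WT libraries, 27.3, 31.2 and 30.2 CPM in clone 1 and 16.1, 18.4 and 13.8 CPM in clone 2. The groups did not overlap, and the clones were higher than WT by 2.13 (SE 0.12, adjusted p 7.55e-16) and 1.25 (SE 0.12, adjusted p 4.20e-10). In uninduced cells *Lipe* stood at 15.0 to 16.5 CPM in all 9 libraries, and neither clone was called different from WT (adjusted p 0.722 and 0.830).

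*Mgll*, which acts at the last step, went separate ways in the clones. Stimulated WT libraries held 3.18, 3.24 and 2.39 CPM, clone 1 held 29.7, 32.6 and 26.6 CPM, and clone 2 held 2.30, 2.81 and 2.65 CPM. Clone 1 was higher than WT by 3.33 (SE 0.15, adjusted p 3.29e-18) and clone 2 overlapped WT, at -0.19 (SE 0.19, adjusted p 0.419). The clones differed by 3.52 (SE 0.15, adjusted p 1.90e-17) after stimulation and by 1.45 (SE 0.13, adjusted p 2.98e-10) before it.

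**Figure D2:**
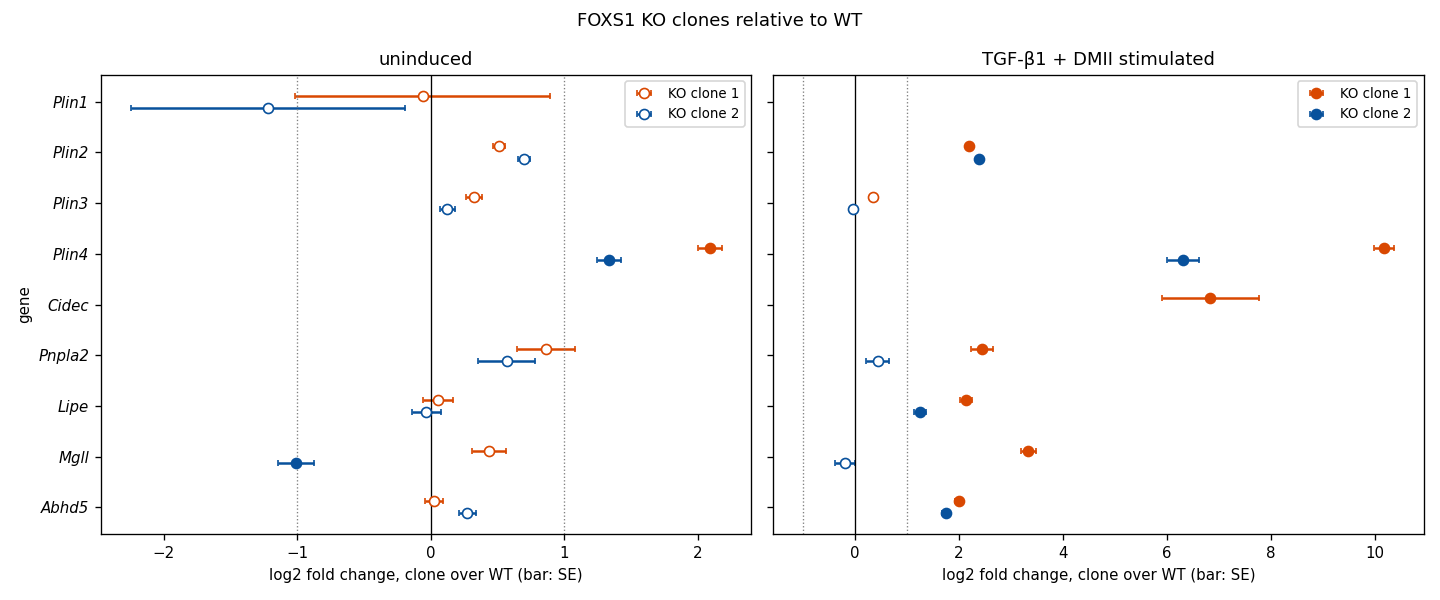
Log2 fold change of the tested genes in each FOXS1 KO clone over WT (points, bars are SE), for uninduced cells (left) and stimulated cells (right), on axes of different length. Filled points were called, dotted lines mark the fold threshold, and a gene with a group at 3 counts or fewer has no point there. *Plin4* is farthest to the right in both panels, and clone 2 lies near 0 for *Pnpla2* and *Mgll* in stimulated cells.

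Before stimulation, 2 of the 9 tested genes were called in each clone against WT. The libraries of both clones also lay above those of WT for *Plin2*, *Plin3* and *Pnpla2*, by less than the fold threshold. In clone 1, 2 genes were higher and none lower, where 6.32% of tested genes were called higher and 8.73% lower. In clone 2, 1 gene was higher and 1 lower, where 5.54% were higher and 9.56% lower. *Plin4* was the gene higher in both, a call made for 3.28% of tested genes, with 5.78% lower in both. The second call in clone 1 was *Cidec* (adjusted p 0.0337, at least 5.80-fold higher), and all of its 16 counts were in the third library, without which it was no longer called. The call in clone 2 was *Mgll*, lower by 1.01 on the log2 scale (6.22, 6.55 and 6.43 CPM against 12.7, 14.9 and 11.2 CPM in WT, SE 0.13, adjusted p 2.13e-07), just past the fold threshold. That call was lost without the filter (-0.97) and without 1 of 2 libraries: it was -0.89 without the second uninduced WT library and -0.98 without the first uninduced clone 2 library. Between the uninduced clones *Mgll* was the only call, higher in clone 1, where 4.89% of tested genes were higher and 3.78% lower.

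Stimulation lowered 4 of the 9 tested genes in WT cells and raised 5 in clone 1. No gene rose in WT cells, where 6.25% of tested genes rose and 13.6% fell. The fall of *Plin4* was the deepest (log2 fold change -8.39, SE 0.23, adjusted p 8.47e-20). *Mgll* fell by 2.13 (SE 0.15, adjusted p 2.98e-13) and *Lipe* by 1.23 (SE 0.12, adjusted p 3.84e-10) on the log2 scale. The fourth call, *Plin1*, rested on 9 counts against 0 (at least 3.16-fold lower, adjusted p 0.0224), and leaving out the second uninduced WT library, which held 7 of the 9, gave an adjusted p of 0.180. Without any 1 of the stimulated WT libraries the adjusted p was 0.0515 to 0.0557, and *Plin1* did not pass the filter when only the groups compared were fitted. *Plin2* and *Plin3* lay lower in every stimulated WT library, by 0.66 and 0.96, under the fold threshold, and *Pnpla2* (0.14) and *Abhd5* (-0.14) were not called.

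In clone 1 none fell, where 5.95% of tested genes rose and 10.7% fell. The 5 that rose were *Plin1* (5.75, SE 0.62), *Cidec* (4.74, SE 0.76), *Abhd5* (1.83, SE 0.06), *Pnpla2* (1.72, SE 0.20) and *Plin2* (1.03, SE 0.05), with adjusted p from 3.91e-05 to 1.99e-20. The DESeq2 Wald test gave *Cidec* a similar change of 4.78 with an adjusted p of 0.148. In clone 2, 3 genes rose and 3 fell, where 6.46% rose and 11.2% fell. *Plin1* (3.30, SE 0.82), *Abhd5* (1.33, SE 0.06) and *Plin2* (1.03, SE 0.04) rose, although *Plin1* did not pass the filter when only the groups compared were fitted, and *Plin4* (-3.43, SE 0.11), *Mgll* (-1.31, SE 0.17) and *Plin3* (-1.13, SE 0.06) fell. *Plin4* therefore fell in clone 2 as in WT cells, from a higher starting level, while in clone 1 its change was -0.31 (SE 0.08, adjusted p 0.00295), under the fold threshold. The responses of the clones were not tested against each other.

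The response itself was tested between each clone and WT. The difference, clone minus WT, is signed, so a positive value also covers a smaller fall than in WT, as for *Plin4*. In clone 1 it was called positive for 7 genes and negative for none, where 5.34% of tested genes were positive and 3.46% negative. In clone 2 it was called positive for 5 and negative for none, where 4.89% were positive and 2.96% negative. The difference for *Plin2* was 1.69 (SE 0.06) in both clones. For *Plin4* it was 8.08 (SE 0.27) and 4.96 (SE 0.37), for *Abhd5* 1.97 (SE 0.09) and 1.47 (SE 0.09), and for *Lipe* 2.08 (SE 0.16) and 1.28 (SE 0.16) in clones 1 and 2. *Pnpla2* and *Mgll* were called in clone 1 (1.58, SE 0.30, and 2.89, SE 0.19) and not in clone 2 (-0.13, SE 0.31, adjusted p 0.808, and 0.82, SE 0.23, adjusted p 0.00665, under the fold threshold). *Plin1* was called in both, with WT at no count after stimulation, and its call in clone 2 was lost when only the groups compared were fitted, where it did not pass the filter. *Cidec* was not called (adjusted p 0.868 in clone 1 and 0.569 in clone 2), and its WT groups held 0 and 4 counts.

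**Figure D3:**
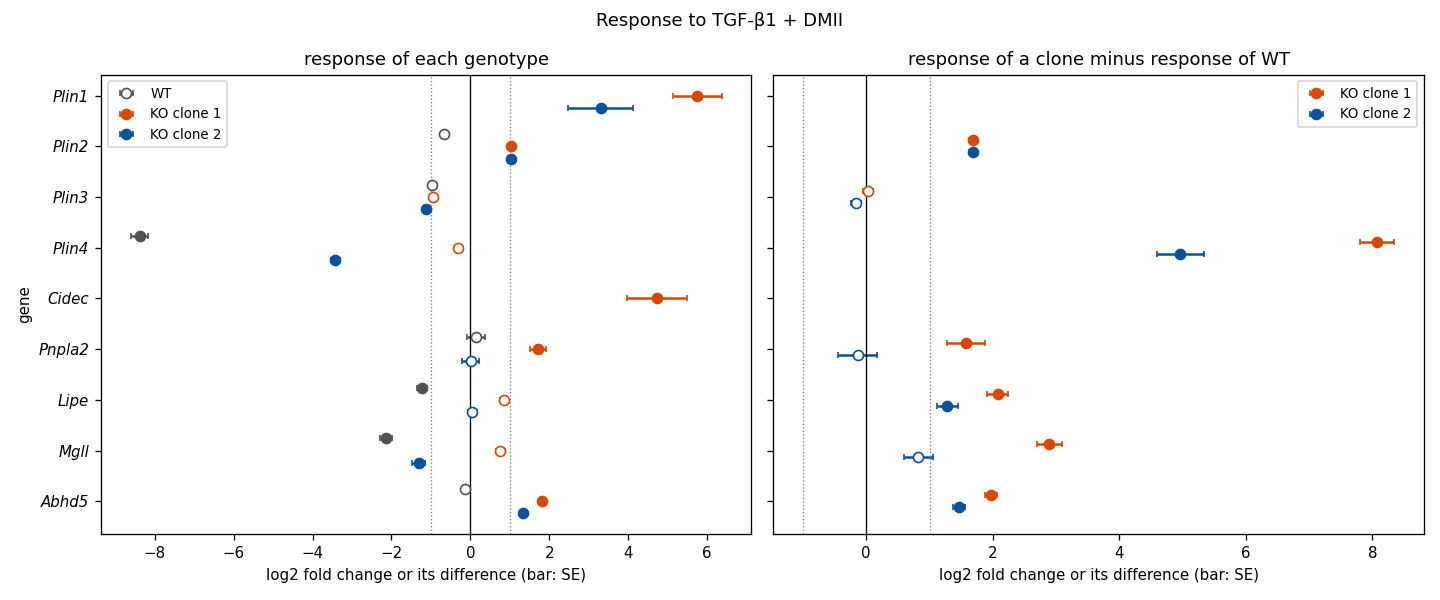
Left, log2 fold change of stimulated over uninduced cells in WT and in FOXS1 KO clones 1 and 2. Right, the response of each clone minus that of WT. Points are fitted values with SE, filled points were called, dotted lines mark the fold threshold, and comparisons with a group at 3 counts or fewer have no point. WT lies left of 0 for every gene shown except *Pnpla2*, and *Plin3* is the gene whose response lies near that of WT in both clones.

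The perilipin pool also changed in its make-up. The summed level of the 5 perilipin genes was 96.3 ± 3.33 CPM per kb in uninduced and 52.7 ± 1.37 in stimulated WT cells. It was 153 ± 4.55 and 218 ± 9.24 CPM per kb in clone 1, and 147 ± 0.417 and 211 ± 1.55 in clone 2 (SD, n = 3). Stimulated clones therefore had similar totals, while the shares of the genes differed. *Plin2* made up 61.0% of the pool in uninduced WT cells and 70.6% after stimulation, 54.9% and 78.5% in clone 1, and 64.9% and 92.0% in clone 2. *Plin4* made up 7.71% and then 0.0401% in WT cells, 20.5% and 11.6% in clone 1, and 12.7% and 0.821% in clone 2. The share of *Plin3* was 31.3% and 29.3% in WT cells, 24.6% and 9.04% in clone 1, and 22.4% and 7.12% in clone 2. *Plin1* reached 0.766% in stimulated clone 1 and 0.0656% in stimulated clone 2.

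**Figure D4:**
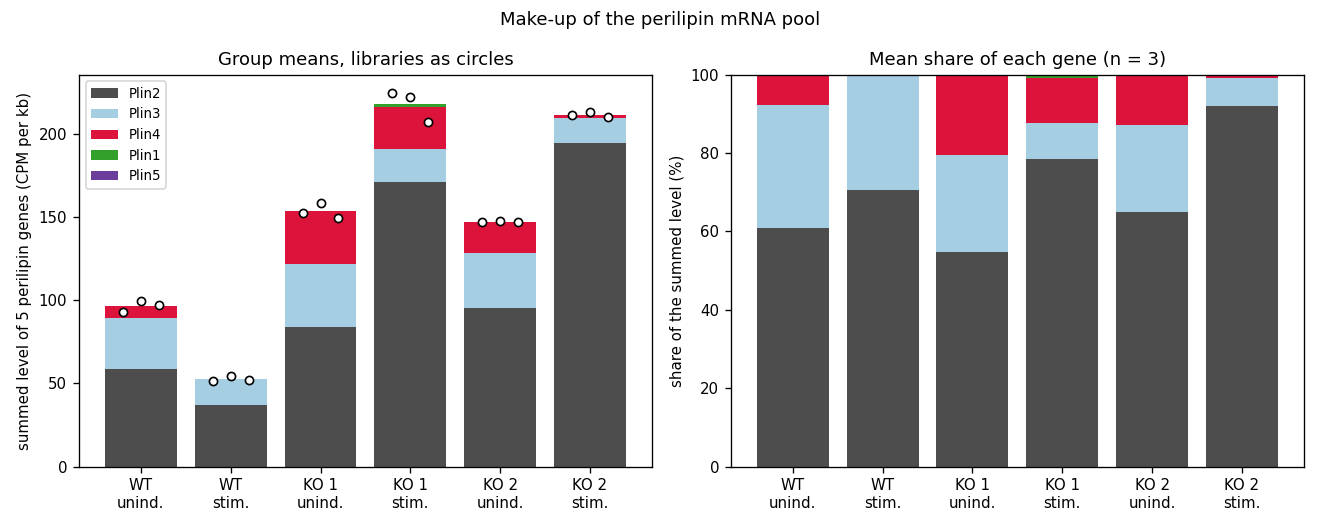
Left, summed level of the 5 perilipin genes in CPM per kb of gene model, stacked by gene as group means, with each library's sum as a circle. Right, the mean share of each gene in that sum (n = 3 libraries a group). *Plin2* is the largest part in every group, the *Plin4* part is not visible in stimulated WT cells, and stimulated clones 1 and 2 have like totals (218 and 211 CPM per kb) with more *Plin4* in clone 1.

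Ranked per kb, *Plin2* was first and *Plin3* second in both WT groups and in both uninduced clones, although the ranges of *Plin3* and *Plin4* overlapped in uninduced clone 1. In stimulated clone 1 the second place was held by *Pnpla2* (32.7 ± 1.66 CPM per kb), ahead of *Plin4* (25.4 ± 2.73) and *Abhd5* (23.1 ± 1.30), whose ranges overlapped, and *Plin3* (19.7 ± 0.561). In stimulated clone 2 it was held by *Abhd5* (19.4 ± 1.21), ahead of *Plin3* (15.0 ± 0.520), *Pnpla2* (8.15 ± 0.743) and *Lipe* (2.73 ± 0.386). *Pnpla2* and *Abhd5* were close in stimulated WT cells (6.03 ± 0.671 and 5.78 ± 0.192 CPM per kb, overlapping), and so were *Lipe* and *Mgll* in uninduced WT cells (2.70 ± 0.137 and 2.55 ± 0.365, overlapping). *Plin1*, *Cidec* and *Plin5* held the last 3 places in each group but stimulated WT cells, where *Plin4* was among the last 3 with *Plin1* and *Plin5*.

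Some of these counts could include reads of a gene on the other strand, because the strand setting of the counting is not given in the sources used here. Of the exonic bases, 16.0% of *Abhd5* lie under *A730085K08Rik*, 15.6% of *Lipe* under *4732471J01Rik*, 3.29% of *Mgll* under *Gm26588* and 0.294% of *Plin4* under *Hdgfl2*. As counted, *A730085K08Rik*, *4732471J01Rik* and *Gm26588* each stayed at or below 0.498 CPM as a group mean. *Hdgfl2* lay between 41.1 and 56.8 CPM as a group mean, a smaller range than that of *Plin4*.

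The genes whose pattern over the 6 groups lay nearest to a member were taken from tested genes that averaged 5 CPM or more, by the root-mean-square distance of their group means of log2 CPM after centring. For *Plin4* they were *Ly6c1* (1.27), *Ucma* (1.33) and *Ces2g* (1.33), each also lowest in stimulated WT cells. For *Plin1* they were *Serpina3g* (0.975), *Limch1* (0.982) and *Scd1* (1.03), the last a fatty acid desaturase, and for *Cidec* they were *Hist1h1d* (1.06), *Parm1* (1.07) and *Apcdd1* (1.24). For *Mgll* they were *Tgfa* (0.575), *Adamtsl4* (0.612) and *Pcdh9* (0.644). Among the 9 members the closest pair was *Plin2* and *Abhd5*, at 0.363, and *Plin1* and *Cidec* lay 0.953 apart. The distances describe 6 group means each.

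Other genes of droplet formation were read against the members. Of 24 such genes, 19 were tested, and in stimulated cells 5 were higher in clone 1 and 4 in clone 2, with none lower, where 9.42% and 7.95% of all tested genes were higher and 9.6% and 8.94% lower. The 4 higher in both were *G0s2*, *Dgat2*, *Dgat1* and *Acsl1*. *Dgat1* and *Dgat2* encode the enzymes that complete triglyceride synthesis. After stimulation *Dgat2* stood at 14.7 ± 0.899 CPM in WT cells and at 156 ± 11.9 and 107 ± 5.45 CPM in the clones (log2 fold changes 3.41 and 2.86). *Dgat1* stood at 41.1 ± 3.29, 218 ± 12.6 and 135 ± 2.04 CPM (2.41 and 1.71), and *Acsl1*, which activates fatty acids, at 20.0 ± 1.14, 224 ± 20.1 and 55.4 ± 2.52 CPM (3.48 and 1.47). The median log2 fold change of the 19 genes was 0.57 in clone 1 and 0.46 in clone 2.

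*G0s2* encodes an inhibitor of ATGL, and it lay higher in the clones before and after stimulation. It stood at 17.6, 14.5 and 17.5 CPM in uninduced and 6.99, 6.74 and 6.40 CPM in stimulated WT libraries. In clone 1 it stood at 105, 108 and 101 CPM and then 184, 171 and 164 CPM, and in clone 2 at 145, 149 and 134 CPM and then 128, 118 and 121 CPM. All clone libraries lay above all WT libraries, with differences from WT of 4.69 and 4.19 in stimulated and 2.66 and 3.11 in uninduced cells. Thus transcripts for the coactivator *Abhd5* and the inhibitor *G0s2* were both higher in stimulated clones. *Hilpda*, another ATGL inhibitor, stayed under the fold threshold against WT in stimulated cells (0.04, adjusted p 0.783, and 0.68, adjusted p 1.48e-05) and stood at 11.8 ± 1.01, 12.1 ± 0.157 and 18.9 ± 0.791 CPM in WT, clone 1 and clone 2. *Cidea*, a relative of *Cidec*, had no count in any stimulated library.

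Of 33 genes of lipolysis control and other neutral lipid hydrolases, 26 were tested. In stimulated cells 7 were higher and 4 lower in clone 1, and 6 higher and 3 lower in clone 2, with 6 higher and 3 lower in both. Of all tested genes, 9.42% were higher and 9.6% lower in clone 1. For clone 2 the shares were 7.95% and 8.94%, and for both clones together 5.26% and 5.77%. The lower ones in both were *Adrb1*, *Pde3a* and *Pde3b*. PDE3B breaks down cyclic AMP downstream of insulin and so restrains lipolysis in adipocytes. *Pde3b* stood at 15.1, 14.0 and 15.4 CPM in stimulated WT libraries and at no more than 0.221 CPM in any stimulated clone library, a difference of -7.10 (SE 0.53, adjusted p 3.41e-11) in clone 1 and -7.43 (SE 0.58, adjusted p 9.19e-11) in clone 2. *Pde3a* had 125 counts in stimulated WT cells and none in any clone library. *Pde3a* and *Pde3b* passed the filter only through their counts in WT libraries, so their calls against WT are not independent of the filter. *Ces1f*, a carboxylesterase whose reads may be shared with its near-identical neighbours, had no count in stimulated WT cells, 43 in clone 1 and 11 in clone 2. In the response of WT cells 1 of the 26 genes rose and 7 fell, while 1 of the 19 droplet genes rose and 5 fell, where 6.25% of all tested genes rose and 13.6% fell.

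*Pparg*, whose product binds and activates perilipin and *Cidec* genes in adipocytes, stood at 4.60, 4.02 and 3.92 CPM in stimulated WT libraries and 48.1 to 51.0 CPM in uninduced ones. It stood at 35.6, 36.2 and 33.3 CPM in stimulated clone 1 and 20.8, 22.0 and 17.4 CPM in stimulated clone 2, higher than WT by 3.07 (SE 0.11, adjusted p 1.22e-20) and 2.26 (SE 0.11, adjusted p 7.49e-17). In uninduced cells both clones lay below WT, by 0.41 and 0.37, under the fold threshold.

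**Figure D5:**
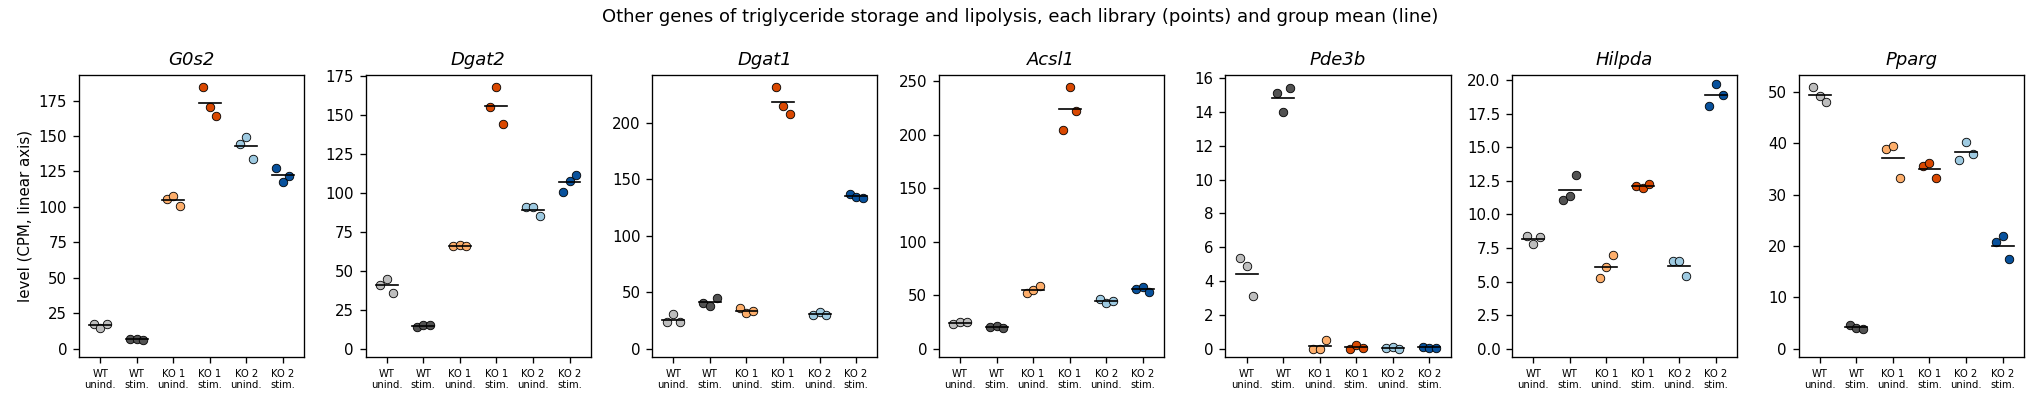
Level in CPM, on linear axes that differ between panels, of *G0s2*, *Dgat2*, *Dgat1*, *Acsl1*, *Pde3b*, *Hilpda* and *Pparg* in every library (points) with the group mean (line), for WT and FOXS1 KO clones 1 and 2, uninduced or stimulated. *G0s2* is higher in every clone library than in any WT library, *Pde3b* is near 0 in all clone libraries, and *Pparg* is lowest in stimulated WT cells.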

How the data were processed

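Poly(A) RNA of 18 libraries of 10T1/2 cells (WT and FOXS1 KO clones 1 and 2, uninduced or stimulated, 3 libraries a group) was sequenced by the authors on an Illumina NovaSeq instrument with 150 bp paired-end reads and mapped to GRCm38 with HISAT2. The authors deposited raw read counts per gene, without normalization, and the length of each gene model. Reads were counted with a program, strand setting and annotation release not given in the sources used here. Gene spans of the 10 members were identical in GENCODE M21, which also gave exon overlaps.

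The members and gene lists were chosen with earlier results of these data known. The filter was filterByExpr on the 6 groups with a minimum count of 10. Libraries were scaled with TMM, and 1 mean for each group was fitted (glmQLFit, robust) and tested with glmQLFTest in edgeR 4.0.16 (R 4.3.3). The SE is the log2 fold change divided by the root of the test's F. A fold was given only where each group held more than 3 counts; otherwise it is a bound against 3 counts over the group (0.0354 to 0.0603 CPM) or a ratio with a 95% counting interval. The study's methods name DESeq2, which served as an alternative (version 1.42.0). The others were DESeq2 size factors, no filter, a filter of 1 CPM in 3 libraries, only the groups compared, no fold threshold, replicate number as a block, and each library left out in turn. The procedure was tested on simulated data. Named genes were the 10 members, *Foxs1*, *Pparg*, *G0s2*, *Hilpda*, *Cidea*, up to 4 genes of each of 2 lists (called in both clones in stimulated cells, ranked by the smaller change) and the 3 genes most alike to each of the 4 members with the widest range. *Adrb1*, outside that rule, was named after its values were seen. No protein sequence was used here. Python 3.11.15 and matplotlib 3.10.9 drew the figures.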

Additional observations from a re-analysis of the deposited data

Results flagged for a closer look

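The response to TGF-β1 + DMII differed between a FOXS1 KO clone and WT for these genes, by the test of the difference itself (edgeR's quasi-likelihood test, log2 scale, adjusted over all tested genes). In clone 1 the difference was 1.69 for *Plin2*, 8.08 for *Plin4*, 1.58 for *Pnpla2*, 2.08 for *Lipe*, 2.89 for *Mgll* and 1.97 for *Abhd5*. In clone 2 it was 1.69 for *Plin2*, 4.96 for *Plin4*, 1.28 for *Lipe* and 1.47 for *Abhd5*. Both clones were set against the same WT libraries, so the values of the clones are not independent of each other. No cause of these differences was tested.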

How the results depend on the processing

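Of 2036 refitted fold changes of the members, 2010 kept their direction and their side of the threshold. Of 275 counts of members called, 258 stayed within 1.5 times. The fold changes cover only comparisons whose groups each held more than 3 counts, for genes that passed the filter of the refit. Many *Plin1* and *Cidec* comparisons, whose calls were the least stable, are therefore left out. For example, the *Cidec* call in uninduced clone 1 was lost without any 1 uninduced WT library (adjusted p 0.0694 to 0.0831). The counts in stimulated cells (8 in clone 1 and 5 in clone 2) were also 8 and 5 under the DESeq2 Wald test. Without a fold threshold the counts were 6 and 5 for clones 1 and 2 against WT in uninduced cells, 9 for the response of clone 1, and 9 and 5 for clone 1 against clone 2 in stimulated and uninduced cells. Without a filter, 1 member was called in uninduced clone 2 and 2 differed between uninduced clones, and the *Lipe* difference in uninduced clone 2 (0.012), the *Pnpla2* response of clone 2 (-0.018) and the *Plin3* difference in response of clone 1 (-0.0029) changed sign. In uninduced clone 1 the count was 1 under DESeq2 and 1 when only the groups compared were fitted. When each library was left out in turn, the counts in uninduced clones 1 and 2 and between uninduced clones each ranged from 1 to 2. Values that changed sign ranged from -0.069 to 0.00029 for *Lipe* in uninduced clone 2, -0.037 to 0.17 for the *Lipe* response of clone 2, -0.148 to 0.367 and -0.054 to 0.096 for the *Pnpla2* responses of WT and clone 2, and -0.360 to 0.155 for the *Pnpla2* difference in response of clone 2. The first uninduced WT library, low in *Pnpla2*, decided the sign of the WT response (-0.148 without it). For *Plin1* in uninduced cells, with under 10 counts a group, the ranges were -1.366 to 1.495 in clone 1, -1.684 to 0.337 in clone 2 and -0.150 to 1.551 between clones. They were -0.025 to 0.095 for *Abhd5* in uninduced clone 1, -0.033 to 0.083 for the *Plin3* difference in response of clone 1 and -0.071 to 0.021 for *Plin3* in stimulated clone 2. The WT response of *Plin3* passed the fold threshold without the second stimulated WT library. The cause of these changes was not tested.

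Shares of the perilipin pool from CPM not divided by length, in the order WT, clone 1 and clone 2, each uninduced and then stimulated, were 56.8, 69.0, 47.6, 72.4, 59.0 and 91.0% for *Plin2* and 11.8, 0.0644, 29.3, 17.6, 19.1 and 1.34% for *Plin4*. Those of *Plin3* were 30.9% in stimulated WT, 23.0% in uninduced clone 1 and 7.59% in stimulated clone 2, and that of *Plin1* was 0.934% in stimulated clone 1.

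Groups share replicate numbers, but same-numbered libraries did not deviate together: r was -0.041 to 0.050 over 45 pairs, none above 0.1, and 4 of 18 libraries correlated best with their own number. With replicate number as a block the counts in stimulated cells were 8 and 5, and no call of a member changed. Depth limits *Plin1* and *Cidec* outside stimulated clone 1, and *Plin5* everywhere.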

Other observations

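Among the macrophage markers, *Lyz2*, the lysozyme gene of myeloid cells, stood at 0.731 ± 0.184 CPM in uninduced WT cells and at 5.59 ± 0.876 and 4.65 ± 0.193 CPM in uninduced clones 1 and 2 (SD, n = 3). *Cd14*, a lipopolysaccharide co-receptor gene, stood at 6.45 ± 2.46, 44.8 ± 1.98 and 26.5 ± 1.57 CPM in the same groups. The rest of that marker list was at or near the floor there. *Ptprc* and *Itgam* had no count, *Adgre1* averaged at most 0.0741 CPM, *Csf1r* 0.155, 0.0701 and 0.167 CPM, and *Cd68* 0.566, 0.818 and 1.33 CPM. In stimulated WT, clone 1 and clone 2 cells *Lyz2* averaged 0.0150, 0.302 and 0.291 CPM, and *Cd14* 4.08, 18.2 and 14.7 CPM. The neighbour *Hdgfl2*, whose exons overlap those of *Plin4* on the other strand, stood at 44.1 ± 3.28 CPM in stimulated WT cells and 56.8 ± 1.52 CPM in stimulated clone 1.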
